A study of Mus musculus with 2 samples.

Results

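A set of 648 macrophages was studied, chosen by the summed level of Gpnmb, Mmp12, Mmp13 and Hmox1, out of 6890 macrophages and 40638 cell barcodes in 2 single-cell libraries of Lewis lung carcinoma (LLC) tumors. Macrophages were barcodes with at least 1000 unique molecular identifiers (UMIs, each counting 1 captured RNA molecule) and under 10% mitochondrial UMIs. They also had a low sum of 4 cancer-cell genes (Rhox5, Krt8, Krt18 and Hmga2), at least 1500 counts per 1000000 UMIs of the barcode (CPM) of Tyrobp, Fcer1g and Ctss together, and under 5000 CPM of S100a8 and S100a9 together. The 10% with the highest sum of the 4 genes were kept, ranked over both libraries, and cells with over 2 UMIs of Mki67 and Top2a or with at least 1 UMI of both Mmp9 and Ctsk were then removed. This left 244 of 3211 macrophages in the control library and 404 of 3679 in the other. The choice used measured values, so differences between the selected cells and the other 6242 macrophages are given below as descriptions, with no test. Where a pair of values is given for the libraries, the first is that of the control library.

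LLC is a mouse lung carcinoma line, here grown under the skin of C57BL/6 mice that were inoculated at 8 weeks of age and sampled 2 weeks later. The control group (sGC Ctr) carried Gucy1b1 flox/flox and the deletion group (sGC ∆PC) carried Cspg4-CreERT2::Gucy1b1 flox/flox. Tamoxifen was given to both groups, in 5 doses when the mice were 4 weeks old, and 3 tumors per group were pooled into 1 library. Gucy1b1 encodes the beta subunit of soluble guanylate cyclase (sGC), the receptor of nitric oxide, and the Cspg4 promoter drives the recombinase in pericytes and in any other cell that uses it. Condition and library cannot be told apart, and no p-value can be given. The intervals below are 95% intervals of counting error alone and do not cover the spread between tumors or between cells. Gucy1b1 itself was at 1 UMI in the selected cells of each library (3 and 10 UMIs in the other macrophages of sGC Ctr and sGC ∆PC), so these cells do not check the deletion.

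Macrophages take up dying cells, red cells and matrix, and store or export what they digest. Hmox1 (heme oxygenase 1) splits heme into iron, carbon monoxide and biliverdin, and is induced by heme, oxidative stress and hypoxia. Mmp12 (macrophage elastase) and Mmp13 (collagenase 3) cut elastin and collagen outside the cell, and Gpnmb is a membrane glycoprotein of lysosome-rich phagocytes. The other markers given for these cells are Ppbp, a CXC chemokine best known from platelets, and Gdf15, a stress-induced cytokine.

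The 4 genes did not contribute alike. Hmox1 gave 50.0% and 49.4% of the summed UMIs in the sGC Ctr and sGC ∆PC libraries, Mmp12 gave 43.2% and 44.0%, and Gpnmb (3.60% and 3.15%) and Mmp13 (3.21% and 3.45%) gave little. A Gpnmb UMI was seen in only 29.9% of the selected sGC Ctr cells and 23.0% of the selected sGC ∆PC cells, so the set is in the first place one of Hmox1 and Mmp12 macrophages. Hmox1 was seen in 88.9% and 86.4% of them and Mmp12 in 64.3% and 67.1%, while Mmp13 was seen in 23.8% and 20.3%. All 4 genes were seen together in 9.43% (23 of 244) and 3.22% (13 of 404) of the selected cells. These shares are at each cell's own depth, which was lower in sGC ∆PC (median 5646 UMIs, against 9002 in sGC Ctr).

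As summed CPM over all selected cells, Mmp12 stood at 1943 (sGC Ctr) and 1835 (sGC ∆PC), against 38.4 and 71.2 in the other macrophages. Hmox1 stood at 2247 and 2057 against 152 and 169. Gpnmb stood at 162 and 131 against 8.61 and 8.46, and Mmp13 at 144 and 144 against 4.97 and 9.45. These 4 gaps follow from the choice of cells. Ppbp and Gdf15, which the sum did not use, were also higher in the selected cells. Ppbp stood at 75.6 and 165 CPM against 7.75 and 8.63, in 24 and 35 of the selected cells, and 172 of the 493 Ppbp UMIs of sGC ∆PC came from 1 cell. Gdf15 stood at 68.4 and 43.1 CPM against 7.47 and 6.01, in 35 and 45 cells.

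**Figure D1:**
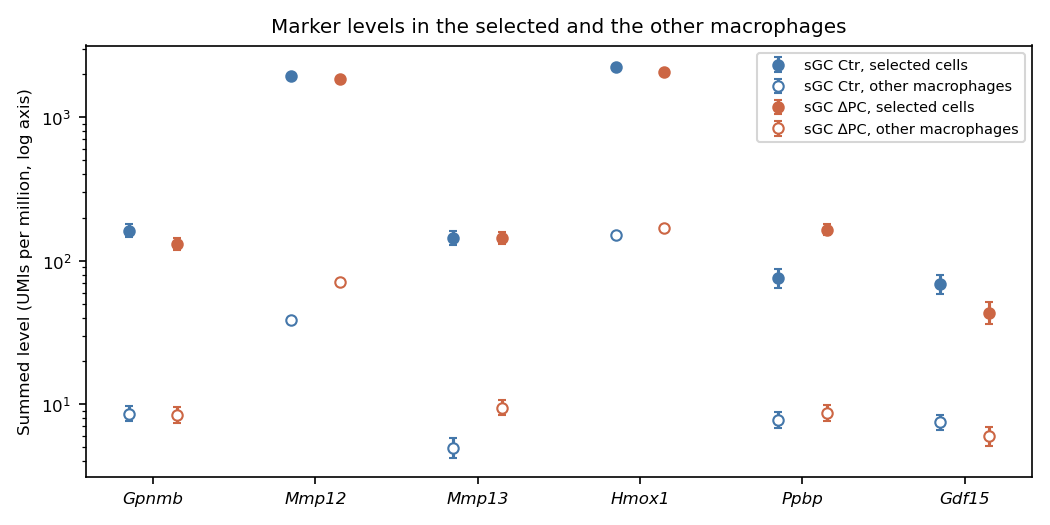
Summed level of the 6 markers (CPM, log axis) in the selected cells (filled) and the other macrophages (open) of each library, with 95% Poisson intervals. Each filled point lies above both open points of its gene, and for Ppbp and Gdf15, which were not used to select cells, the lowest filled points are 75.6 and 43.1 against 7.75 to 8.63 and 6.01 to 7.47.

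The limit fell at 1152 CPM of the 4-gene sum. The 3 cells just inside had sums of 1159, 1157 and 1152 CPM, and the 3 just outside had 1151, 1151 and 1149 CPM, with 50 cells within 10% above the limit and 49 macrophages within 10% below it. The selected cells ran on from there without a gap (quartiles 1673, 2611 and 4932 CPM), and the other macrophages had a median of 92.1 CPM, with 2577 of them at 0. The set is therefore the upper end of a range.

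Depth differed between the libraries. The selected cells had a median of 9002 UMIs and 2459 genes in sGC Ctr, but 5646 UMIs and 1864 genes in the sGC ∆PC library, and the other macrophages had medians of 9716 and 7057 UMIs. The libraries held 15007 and 25631 barcodes with 487859656 and 436352742 UMIs. They shared 131 barcodes, none of them among the selected cells. With every cell thinned to 1000 UMIs, Mmp12 was seen in 48.8% and 49.3% of the selected cells, Hmox1 in 63.1% and 61.4%, Gpnmb in 9.84% and 10.1%, and Mmp13 in 9.02% and 8.42%. At equal depth the intervals of the Gpnmb shares overlapped (6.40 to 14.3 and 7.38 to 13.5).

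Free RNA was read from T cells (barcodes with 3 or more UMIs of Cd3d, Cd3e, Cd3g and Trbc2 that failed the macrophage limit), which should lack these genes. Barcodes with more macrophage RNA were left out by that limit, so the T cell shares can understate the background. Of 66 T cells of sGC Ctr (median 3259 UMIs) 6.06% had a Mmp12 UMI, 3.03% a Hmox1 UMI and 0 a Gpnmb or Mmp13 UMI. Here 0 of 66 allows a share of up to 4.55% as 3 counts of the total, or up to 5.44% by the exact binomial interval. Of 64 T cells of sGC ∆PC (median 4445 UMIs) 6.25% had a Mmp12 UMI, 4.69% a Hmox1 UMI, 3.12% a Gpnmb UMI and 1.56% a Mmp13 UMI. Thinned to 1000 UMIs, the T cells had a Mmp12 UMI in 3.03% and 3.12%. The selected cells lay far above that, but they were chosen on a sum that holds Mmp12, Hmox1 and Gpnmb, so such gaps follow from the choice. For Hmox1 the thinned T cell shares were 0 of 66 and 1.56%, and for Gpnmb 0 of 66 and 1.56% (0.0396 to 8.40), which overlaps the interval of 7.38 to 13.5 of the selected sGC ∆PC cells. Ppbp was seen in 3.28% and 5.94% of the thinned selected cells and in 0 of 66 and 0 of 64 thinned T cells. Gdf15 was seen in 4.10% and 2.97% of the former and in 1.52% and 0 of 64 of the latter. For both genes the intervals of selected cells and T cells overlapped in both libraries. Granulocytes did carry Hmox1, in 44.7% and 45.5% of them. Among the other macrophages Mmp12 was seen in 2.46% and 4.61% of thinned cells, a share near that of the T cells, whereas Hmox1 was seen in 11.7% and 10.7%. Both shares were lowered by the choice, which had taken out the cells with the highest sums, so they do not show background alone.

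The gene positions and promoters are given because 3 of the 5 markers with a RefSeq promoter share a short sequence. On GRCm38 Mmp12 (chromosome 9, 7344381 to 7369499, plus strand) and Mmp13 (chromosome 9, 7272514 to 7283331, plus strand) lie in 1 cluster of metalloproteinase genes. Gpnmb lies on chromosome 6 (49036546 to 49070929, plus strand), Hmox1 on chromosome 8 (75093621 to 75100589, plus strand), Ppbp on chromosome 5 (90768518 to 90770063, plus strand) and Gdf15 on chromosome 8 (70629393 to 70632456, minus strand). In windows of 250 bases before to 50 bases after each RefSeq start, 3 motifs were searched on both strands. They were TGACTCA, the letters bound by AP-1 factors such as Fos and Jun, TGACNNNGC, the core of the antioxidant response element bound by NRF2, and CACGTG, an E-box of the kind bound by MITF and TFE factors. TGACTCA or its reverse complement was found once each in the windows of Mmp13, Gpnmb and 1 of the 2 Mmp12 starts (the one farther inside the gene as given above), and not in those of Ppbp and Gdf15. It was present in 5.20% of 32851 mouse promoters. The matches are shown 5′ to 3′ on the plus strand of GRCm38 with the AP-1 letters in capitals.
Mmp13 (chr9:7272449-7272513): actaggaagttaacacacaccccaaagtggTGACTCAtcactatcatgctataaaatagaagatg
Mmp12 (chr9:7347300-7347369): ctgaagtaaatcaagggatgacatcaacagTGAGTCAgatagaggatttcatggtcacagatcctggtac
Gpnmb (chr6:49036516-49036545): caggggcaagTGACTCAtgagcacgagttg

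The match ended 29 bases before the RefSeq start of Mmp13 and 38 bases before that of Mmp12, and began at base 9 of the Gpnmb transcript, whose RefSeq start lies before the GENCODE start given above. The antioxidant response element core, found in 12.4% of all promoters, was in none of these 7 windows, which do not include Hmox1, and CACGTG, found in 7.15%, was in 1 of the 2 Gdf15 windows. A match is a description of the letters in these windows.

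Most selected cells were led by 1 of 2 genes, Hmox1 or Mmp12. Hmox1 had the most UMIs of the 4 genes in 129 of 244 cells of sGC Ctr (52.9%, exact binomial interval 46.4 to 59.3) and 204 of 404 cells of sGC ∆PC (50.5%, 45.5 to 55.5). Mmp12 led in 106 cells (43.4%, 37.1 to 49.9) and 176 cells (43.6%, 38.7 to 48.6), while Gpnmb led in 9 and 10 cells and Mmp13 in 0 and 6. The intervals of these shares overlapped between the libraries. Hmox1-led cells had a median of 9695 and 5007 UMIs and Mmp12-led cells of 8485 and 6650 UMIs. The levels of Mmp12 and Hmox1 ran against each other across the selected cells thinned to 1000 UMIs (Spearman rho -0.32 over 244 cells and -0.37 over 404 cells, a description, since a cell with little of one needed the other to be selected). Both genes were seen together in 53.3% and 53.7% of the selected cells.

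The kinds, defined after these values were seen, differed in genes that the sum did not use. Of 5178 genes with at least 50 UMIs over the 2 kinds in each library, 54 were at least 2-fold higher in Hmox1-led cells in both libraries and 20 in Mmp12-led cells, the 4 selecting genes included. Ccl8, a monocyte-attracting chemokine, stood at 1775 CPM (sGC Ctr) and 2000 CPM (sGC ∆PC) in Hmox1-led cells and at 29.9 and 137 CPM in Mmp12-led cells, and 623 of 2384 and 1354 of 2931 of its UMIs in Hmox1-led cells came from 1 cell of each library. Lyve1, a hyaluronan receptor, stood at 232 and 150 against 7.23 and 6.37 CPM, Ednrb, an endothelin receptor, at 159 and 117 against 6.19 and 1.42 CPM, and Gas6, a ligand of Axl and Mertk that bridges to dying cells, at 200 and 104 against 14.5 and 10.6 CPM. Cd163, the receptor that takes up hemoglobin bound to haptoglobin, had 0 UMIs in Mmp12-led cells of both libraries and 168 and 82 UMIs in Hmox1-led cells, at least 40.4-fold and 26.3-fold higher against a floor of 3 counts per set. Of the 9 listed genes of resident-like macrophages, 8 passed the count minimum and 7 of these were at least 2-fold higher in Hmox1-led cells in both libraries. The list's median log2 ratio of Mmp12-led to Hmox1-led cells was -2.15 and -2.64, against -0.07 and -0.01 over all 5178 genes.

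These high sums rest on part of the Hmox1-led cells. Ccl8 was seen in 26.4% and 28.9% of them, Lyve1 in 14.7% and 14.7%, and Cd163 in 6.20% and 7.84%, whereas Mrc1, the mannose receptor, was seen in 66.7% and 67.6%. Gclm, which makes glutathione, and Slc30a1, the zinc exporter, were also higher in Hmox1-led cells, at 252 and 218 against 73.3 and 45.3 CPM and at 36.5 and 40.3 against 9.29 and 12.04 CPM.

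Of 6 MHC class II genes measured, 4 were at least 2-fold higher in Mmp12-led cells in both libraries and 0 in Hmox1-led cells, with a median log2 ratio of Mmp12-led to Hmox1-led cells of 1.19 and 2.86. Of 11 M1-like genes 2 were higher in Mmp12-led cells and 0 in Hmox1-led cells, and of 19 chemokines 1 in each. Of 11 M2-like genes 1 was higher in Mmp12-led cells and 6 in Hmox1-led cells (medians -1.11 and -1.03). H2-Aa, a chain of MHC class II, stood at 1146 and 2059 CPM in Mmp12-led cells and at 453 and 287 CPM in Hmox1-led cells. Cd74, the invariant chain that accompanies class II, stood at 2947 and 5256 against 1219 and 939 CPM. Mgl2, a galactose-binding lectin, stood at 57.8 and 178 against 6.70 and 19.8 CPM, Cxcl9, a chemokine induced by interferon-gamma, at 241 and 224 against 48.4 and 55.3 CPM (123 of 233 UMIs of the Mmp12-led sGC Ctr cells in 1 cell), and Il1b at 877 and 939 against 368 and 385 CPM. Itgax (CD11c), F7 (coagulation factor VII) and Mmp13 were higher in Mmp12-led cells as well. Gpnmb did not separate the kinds by 2-fold, at 181 and 99.2 against 93.1 and 79.8 CPM.

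**Figure D2:**
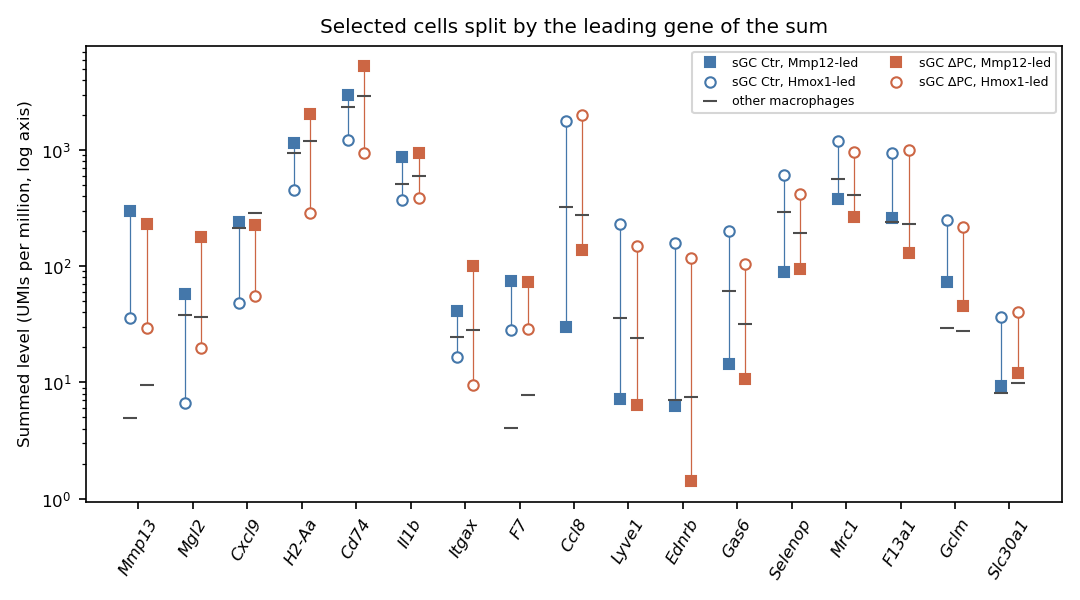
Summed level (CPM, log axis) of 17 genes in Mmp12-led (squares) and Hmox1-led (open circles) selected cells of each library, with a dash for the other macrophages. The 8 genes on the left are higher in Mmp12-led cells and the 9 on the right in Hmox1-led cells, in both libraries.

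Against the other macrophages of the same library, 243 of 11188 genes (2.17%) were at least 2-fold higher in the selected cells in both libraries and 375 (3.35%) at least 2-fold lower, among genes with at least 50 UMIs over the 2 sets in each library. The log2 ratio used a pseudocount of 0.5 counts scaled to the totals, and its median over all genes was -0.15 and -0.17. Ranked by the smaller of the changes of the 2 libraries, the 12 genes with the largest excess were Mmp12, Gpnmb, Slc40a1, Mmp13, Hmox1, Ppbp, Nos2, Il7r, Dnmt3l, Ednrb, Gdf15 and F7. Without each gene's top cell 199 of the 243 higher genes and 369 of the 375 lower genes were still past 2-fold, and with each cell weighted equally 177 and 212 were.

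Slc40a1 (ferroportin), the only known exporter of iron from cells, stood at 48.6 and 15.7 CPM against 1.05 and 0.995, which is 45.1-fold and 15.3-fold. It was seen in 15 and 12 cells, of which 12 and 11 were Hmox1-led, and 41 of its 115 and 23 of its 47 UMIs came from 1 cell. With cells ranked after thinning, the smaller of its log2 ratios in the 2 libraries was 2.88, against 3.94. Nos2, the inducible nitric oxide synthase, stood at 49.4 and 93.1 CPM against 5.59 and 10.4, in 46 and 67 cells. Thinned to 1000 UMIs, Nos2 was seen in 5.74% (3.17 to 9.44) and 5.45% (3.44 to 8.13) of the selected cells, in 0 of 66 and 0 of 64 T cells, whose exact intervals overlapped these, and in 3.83% and 5.97% of granulocytes. Il7r, a cytokine receptor subunit that T cells also use, stood at 183 and 160 CPM against 16.1 and 18.9 and was spread over 107 and 137 cells, while the 4 T cell genes listed below were near 0 there. Nos2 and Il7r overlapped in part, since 28 of the 46 Nos2 cells of sGC Ctr and 38 of the 67 of sGC ∆PC also had an Il7r UMI. Dnmt3l, a cofactor of DNA methyltransferases, was low, at 8.45 and 10.0 CPM against 1.02 and 1.14. Ednrb stood at 92.9 and 59.1 CPM against 7.10 and 7.43, in 21 and 47 cells. Of its 220 and 177 UMIs, 38 and 32 came from 1 cell of each library. F7 stood at 46.9 and 52.7 CPM against 4.07 and 7.82, in 54 and 62 cells. Of these genes Slc40a1 and Ednrb were higher in Hmox1-led cells. F7 was higher in Mmp12-led cells (74.3 and 72.9 CPM) than in Hmox1-led cells (28.3 and 28.7 CPM), and both lay above the other macrophages.

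**Figure D3:**
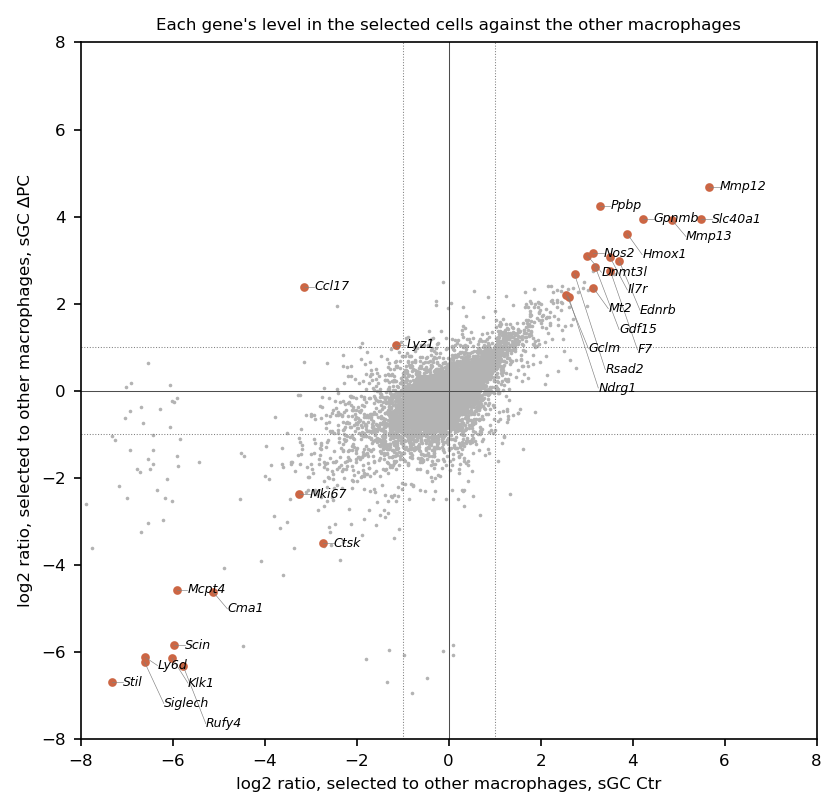
Log2 ratio of each gene's level in the selected cells to that in the other macrophages, sGC Ctr on the horizontal and sGC ∆PC on the vertical axis, for 11188 genes (dotted lines mark 2-fold). The largest excesses lie along the diagonal, Ccl17 (-3.15 and 2.39) and Lyz1 (-1.15 and 1.06) lie in the upper left, and genes with 0 UMIs in 1 set lie at values set by the pseudocount.

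Of 19 genes of heme and iron, 6 were at least 2-fold higher in both libraries and 0 lower, with a median log2 ratio of 0.28 and 0.32. Beside Hmox1, whose excess follows from the choice of cells, these were Slc40a1, Cd163, the heme transporter Slc48a1, and both chains of ferritin, the iron store. Fth1 stood at 29743 and 24582 CPM against 8169 and 8168 and was seen in every selected cell, and Ftl1 stood at 14487 and 10943 CPM against 5186 and 4355. Slc48a1 was 3.86-fold and 3.82-fold higher. Cd163 was 5.48-fold and 5.28-fold higher in CPM, yet it was seen in 3.28% and 4.21% of the selected cells and in 3.64% and 1.89% of the others, so its sum rests on a few cells. Hemoglobin, the heme source inside red cells, was far apart between the libraries. Hbb-bs stood at 64.6 CPM in the selected cells and 36.8 in the others of sGC Ctr, against 2.67 and 1.35 in sGC ∆PC. In the selected sGC Ctr cells 106 of its 153 UMIs came from 1 cell, so the excess over the others there rests in large part on that cell.

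Of 21 targets of NRF2, the factor that answers oxidative stress, 8 were at least 2-fold higher and 0 lower (medians 0.91 and 0.58). Gclm stood at 173 and 128 CPM against 29.3 and 27.6, Slc7a11, the cystine importer, at 150 and 151 CPM against 36.4 and 48.7, and Prdx1, a peroxide reductase, at 2013 and 1702 CPM against 735 and 688. Of 8 genes of metallothionein and zinc, 3 were higher and 1 lower. Mt2 stood at 614 and 606 CPM against 69.3 and 118, and Mt1 and Slc30a1 were also past 2-fold. Mt2 was seen in 57.0% and 59.9% of the selected cells and in 28.8% and 29.7% of the T cells, or in 20.9% and 29.7% against 10.6% and 3.12% with all thinned to 1000 UMIs, where the sGC Ctr intervals overlapped. The lower gene was Mt3.

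Genes induced in hypoxia had a like pattern, with 10 of 29 at least 2-fold higher and 0 lower (medians 0.84 and 0.79). Ndrg1 was 6.09-fold and 4.46-fold higher, Adm (adrenomedullin, a vasodilator peptide) 4.67-fold and 4.14-fold, the glucose importer Slc2a1 3.34-fold and 2.90-fold, and Vegfa, the main growth factor of blood vessels, 3.55-fold and 2.09-fold. In CPM, Vegfa stood at 237 and 239 in the selected cells against 66.7 and 114. Gapdh, a glycolytic enzyme, stood at log2 ratios of 0.53 and 0.56.

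Of 20 type I interferon response genes, 8 were at least 2-fold higher and 0 lower (medians 1.05 and 0.89). Rsad2 (viperin) stood at 267 and 223 CPM against 39.9 and 34.9, in 18.4% and 14.1% of the selected cells and 6.06% and 4.69% of the T cells, and Ifit2 at 103 and 63.1 CPM against 13.3 and 11.1, in 26 and 19 cells. Of those Ifit2 cells 17 and 14 had a Rsad2 UMI as well. With all cells thinned to 1000 UMIs, Rsad2 was seen in 8.61% (5.41 to 12.9) and 6.68% (4.45 to 9.57) of the selected cells and in 1.52% (0.0384 to 8.16) and 1.56% (0.0396 to 8.40) of the T cells, so the intervals overlapped. Of the 8 higher genes Irf7 was seen in the most selected cells, 21.7% and 21.8%, while Ifi27l2a, the most abundant gene of the list and not past 2-fold in both libraries, was seen in 51.6% and 51.0%. The list's median log2 ratio of Mmp12-led to Hmox1-led cells was -0.81 and -0.59.

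Among secreted factors, 9 of 23 chemokines were at least 2-fold higher and 0 lower. Cxcl3, which attracts granulocytes, was 12.1-fold and 6.38-fold higher, Ccl24 6.15-fold and 3.77-fold, Ccl8 3.16-fold and 3.78-fold and Cxcl2 2.21-fold and 2.21-fold. The excess of Ccl8 rests in part on 1 cell of each library, as given above for the Hmox1-led cells. Of 29 growth factors and matrix proteins, 6 were higher and 1, Pdgfa, lower. Inhba, a subunit of activin, was 8.20-fold and 4.98-fold higher, Pgf (placental growth factor) 5.11-fold and 4.25-fold and Igf1 3.45-fold and 4.03-fold, while Spp1 (osteopontin) stood at log2 ratios of 1.03 and 0.09. Of 17 metalloproteinases and inhibitors, 4 were higher, of which Mmp12 and Mmp13 had been used to select the cells, and 1, Mmp9, which was used to remove cells, was lower. Mmp8, a collagenase that the sum did not use, was 7.52-fold and 5.17-fold higher and Adam8 2.65-fold and 2.57-fold, whereas the inhibitors Timp2 (-0.20 and -0.21) and Timp1 (-0.94 and -0.67) were not above their level in the other macrophages.

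Of 26 lipid-handling genes, 6 were at least 2-fold higher and 0 lower. Fabp5, a fatty acid carrier, was 4.03-fold and 3.96-fold higher, Cd36, a scavenger receptor, 3.94-fold and 3.60-fold and Plin2, the coat of lipid droplets, 2.86-fold and 2.39-fold. Trem2, a lipid receptor of tumor macrophages, was near its level elsewhere (log2 ratio -0.12 and -0.11). Of 40 lysosomal genes only Gla and Lipa were past 2-fold upward in both libraries and 1 gene, Ctsk, downward, and the median of the list was 0.40 and 0.25. The cathepsin Ctsb stood at log2 ratios of 0.90 and 0.83 and Ctsd at 1.09 and 0.87, short of 2-fold in 1 or both libraries. Ctsk was used to remove cells.

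Of 24 genes of the integrated stress response, 5 were higher and 0 lower, among them Gdf15, Slc7a11, Trib3 (3.86-fold and 2.25-fold) and Ddit3 (2.16-fold and 2.82-fold). Of 21 immediate early and heat shock genes, 4 were higher, including Hspb1 and Hspa1b, whereas Fos, a subunit of AP-1, stood at log2 ratios of 0.31 and 0.08 and Jun at 0.73 and 0.74. Of 17 genes of checkpoints and immune regulation, 4 were higher. Among them Cd274 (PD-L1) stood at 107 and 148 CPM against 22.5 and 34.9, and Il1rn, the antagonist of interleukin 1, at 507 and 398 CPM against 111 and 135. Of 12 genes listed as M1-like 3 were higher (Nos2, Il1a and Ptgs2), and of 13 listed as M2-like 3 were higher.

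**Figure D4:**
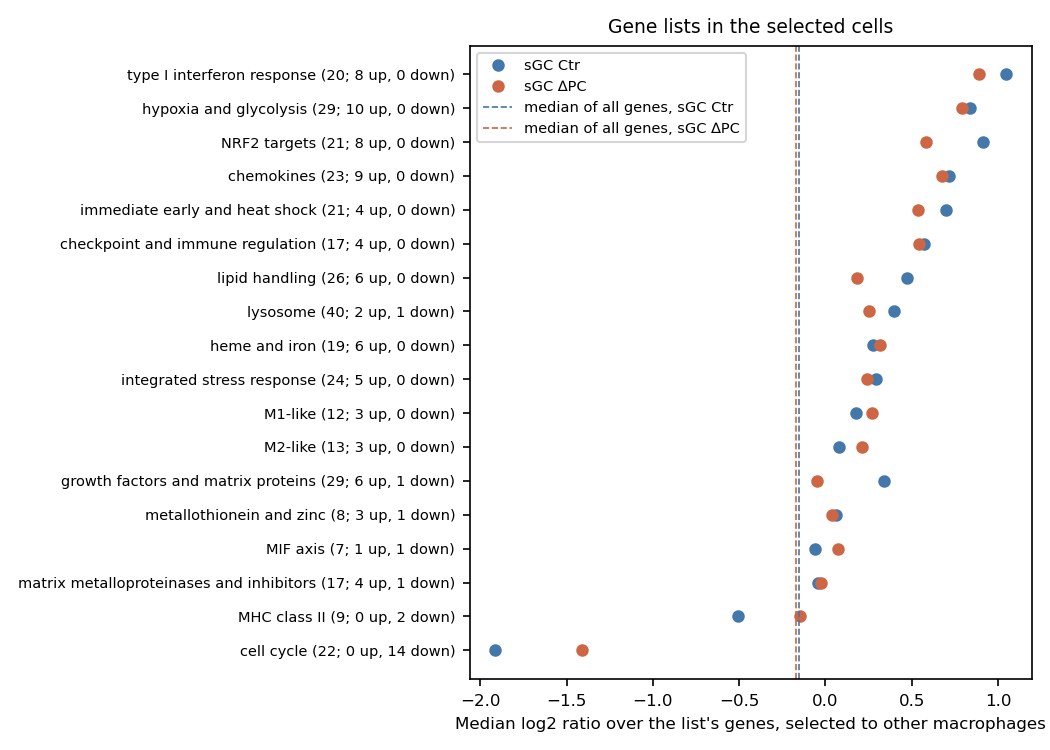
Median log2 ratio of selected to other macrophages over the genes of 18 lists, for sGC Ctr (blue) and sGC ∆PC (orange), with the number of genes measured and of those at least 2-fold higher or lower in both libraries. Dashed lines mark the medians of all 11188 genes, -0.15 and -0.17, and the lists farthest above them are interferon response, NRF2 targets and hypoxia in sGC Ctr and interferon response, hypoxia and chemokines in sGC ∆PC.

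Of 12 general macrophage genes none was past 2-fold, and their median log2 ratio was -0.40 and -0.32. C1qa stood at 1951 and 1670 CPM against 3606 and 2827, Lyz2 at 10299 and 10595 against 15648 and 15198, and Csf1r at 274 and 269 against 427 and 354. Of 22 cell-cycle genes 14 were at least 2-fold lower and 0 higher, and of 9 genes of osteoclast-like cells 5 were lower, in part because proliferating and Mmp9 Ctsk cells had been removed. MHC class II genes had 0 of 9 higher and 2, H2-DMb2 and H2-Oa, lower (medians -0.51 and -0.15).

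The 8 genes with the largest fitted deficit were Stil, Siglech, Ly6d, Klk1, Scin, Rufy4, Cma1 and Mcpt4. The first 6 had 0 UMIs in the selected cells, so their order rests on the pseudocount, and with a pseudocount of 5 counts Mcpt4 (-4.23) and Cma1 (-4.15) were below Stil (-3.50). Stil, which builds centrioles in dividing cells, had 147 and 93 UMIs in the other macrophages, which makes it at least 3.58-fold and 3.30-fold lower in the selected cells against a floor of 3 counts per set. The 386 and 289 macrophages with over 2 UMIs of Mki67 and Top2a were barred from the selected cells but stayed among the others. For Klk1, Scin and Rufy4 the bound in sGC Ctr was 1.44-fold, 1.39-fold and 1.22-fold. Siglech and Ly6d are genes of plasmacytoid dendritic cells, and Cma1 and Mcpt4 are mast cell proteases. Cma1 had 2 and 2 UMIs in the selected cells against 979 and 486 in the others, so some barcodes with mast cell RNA had passed the macrophage limits. Barcodes with 2 or more UMIs of 12 genes of mast cells, dendritic cells and lymphocytes numbered 74 (2.49%) and 69 (2.11%) among the other macrophages and 0 among the selected cells. Without them 248 genes were higher and 332 lower, and 4 of the 8 named genes lost their deficit. Mcpt4 was then at a log2 ratio of -0.55, and Cma1, Siglech and Klk1 were no longer lower in both libraries.

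Markers of other cells differed in level. The 4 defining T cell genes summed to 0.422 and 2.00 CPM and the 5 dendritic cell genes to 5.49 and 1.67 CPM. The 7 platelet genes summed to 2623 and 2028 CPM against 919 and 639 in the other macrophages. Ppbp and Pf4, which macrophages also use, made up nearly all of these UMIs, while Gp9, Gp1bb and Tubb1 were at 0 in both libraries and Itga2b and Treml1 had at most 2 UMIs. The 10 cancer-cell genes summed to 228 and 254 CPM in the selected cells and to 203 and 244 CPM in the others, with Hmga2 and Lum the most abundant. Part of that level is fixed by the limit on cancer-cell genes. Fibroblast genes summed to 75.2 and 163 CPM against 189 and 177, with Dcn the most abundant, and granulocyte genes to 101 and 188 CPM against 82.4 and 124. Red cell genes summed to 130 and 3.67 CPM against 80.0 and 2.84. In the selected sGC Ctr cells, 106 of 153 Hbb-bs UMIs, 36 of 54 Hba-a1 UMIs and 32 of 55 Hba-a2 UMIs each came from 1 cell. The excess of red cell genes there thus rests in large part on few cells. The part of the RNAs of these other cells in the results was not tested.

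Of the 9 genes of resident-like macrophages 5 were at least 2-fold higher in the selected cells than in the other macrophages and 0 lower (medians 1.44 and 1.29). Set beside other macrophage sets of the same libraries, the selected cells overlapped in part with resident-like macrophages. Of the macrophages in the top 10% for Mrc1, Folr2 and Ccl8, 38 (sGC Ctr) and 66 (sGC ∆PC) were selected cells, which is 15.6% and 16.3% of the selected cells and 10.7% and 19.7% of that set. The resident-like set held 11.0% and 9.11% of all macrophages. The overlap lay in the Hmox1-led cells (23.3% and 25.5% of them) rather than in the Mmp12-led cells (6.60% and 6.82%). Of the top 10% for MHC class II, 12 and 31 were selected, which is 4.92% and 7.67% of the selected cells and 3.66% and 8.59% of that set. Among Mmp12-led cells the MHC class II share was 7.55% and 16.5%, and among Hmox1-led cells 3.10% and 0.490%. The MHC class II set held 10.2% and 9.81% of all macrophages, so the Mmp12-led cells lay above that share in sGC ∆PC and below it in sGC Ctr. The resident-like set also carried Hmox1, at 574 and 947 CPM, and Ednrb, at 77.4 and 76.7 CPM, but Nos2, Il7r and Inhba were lower there than in the selected cells, at 5.73 and 33.1, 7.64 and 12.7, and 3.06 and 6.90 CPM. Slc40a1 stood there at 7.07 and 16.3 CPM, against 48.6 and 15.7 in the selected cells, and Ppbp at 39.7 and 122 against 75.6 and 165 CPM. Cd163 (98.4 and 47.4 against 71.0 and 27.7 CPM) and Ccl8, which chose that set (2301 and 2728 against 1020 and 1044 CPM), were higher there than in the selected cells. The 61 and 72 Mmp9 Ctsk cells had 4758 and 3642 CPM of Ctsk, against 29.6 and 17.4 in the selected cells, and had Hmox1 at 285 and 495 CPM.

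Between the conditions, the selected cells made up 7.60% of the macrophages of sGC Ctr (exact binomial interval 6.71 to 8.57) and 11.0% of those of sGC ∆PC (9.99 to 12.04), a ratio of 1.45 (log2 ratio 0.53, 0.31 to 0.75, counting error only). Hmox1-led cells made up 4.02% and 5.54% of macrophages and Mmp12-led cells 3.30% and 4.78%. Since each condition is 1 library, the difference cannot be told apart from a difference between libraries or pools. Mmp12 and Mmp13 were also higher in sGC ∆PC among the other macrophages (log2 ratio 0.89 and 0.93), where Hmox1 (0.15) and Gpnmb (-0.03) differed little. In the selected cells the same ratios were -0.08, -0.01, -0.13 and -0.30. The limit on their sum was the same in both libraries.

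Within the selected cells, 47 of 7641 genes (0.615%) were at least 2-fold higher in sGC ∆PC than in sGC Ctr and 37 (0.484%) at least 2-fold lower, and the median log2 ratio was -0.05. In the other macrophages 12 of the same genes were past 2-fold higher and 9 lower (32406592 and 28142269 UMIs, against 2367068 and 2996030 in the selected cells). Past 2-fold in both sets were 6 higher and 7 lower genes. Without each gene's top cell, 40 of the 47 and 31 of the 37 genes were still past 2-fold, and with each cell weighted equally 34 and 25 were.

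The genes highest in sGC ∆PC were Retnla, Ccl17, Edn1, 2810403D21Rik, Gm26885, Lpl, Vcam1, Lyz1, Gbp4 and Ciita. Retnla, a secreted protein induced by interleukin 4, had 0 UMIs in the 244 selected cells of sGC Ctr and 258 UMIs in 12 of the 404 of sGC ∆PC (99 of them in 1 cell), at least 67.9-fold higher against a floor of 3 counts. In the other macrophages it went the other way, with 47 UMIs (sGC Ctr) and 3 UMIs (sGC ∆PC). Ccl17, a chemokine for T helper 2 and regulatory T cells, had 3 UMIs in 1 cell of sGC Ctr and 218 UMIs in 23 cells of sGC ∆PC (log2 ratio 5.65, 4.28 to 8.13), while the other macrophages had 371 and 389 UMIs (log2 ratio 0.27). In the selected cells the ratio was 3.86 at a mitochondrial limit of 5% and 2.70 with cells ranked after thinning. Both were found in overlapping cells, a comparison chosen after the values were seen. Of the 12 Retnla cells 8 had a Ccl17 UMI and 11 a Mgl2 UMI, 19 of the 23 Ccl17 cells had a Mgl2 UMI, and 10 and 22 of these cells were Mmp12-led. Mgl2 was seen in 16 selected cells of sGC Ctr and 53 of sGC ∆PC.

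Other entries rest in large part on 1 cell. Of the 50 Edn1 UMIs of sGC ∆PC 45 came from 1 cell, of the 80 UMIs of 2810403D21Rik 66, of the 66 UMIs of Gm26885 44, of the 420 UMIs of Lpl 205 and of the 321 UMIs of Lyz1 118. Without its top cell 2810403D21Rik had a log2 ratio of 0.14, and with cells ranked after thinning Lyz1 had 0.21 and Gm26885 0.91, all short of 2-fold. Ciita, the master regulator of MHC class II genes, was more evenly spread, with 19 UMIs in 14 cells of sGC Ctr and 98 UMIs in 43 cells of sGC ∆PC (8.03 and 32.7 CPM). Its log2 ratio was 2.00 (1.31 to 2.82) in the selected cells and 0.49 in the other macrophages, but 0.80 in the selected cells with equal weight of the 4 genes and 0.81 with cells ranked after thinning. Vcam1, an adhesion receptor, was seen in 12 and 35 cells and Gbp4, an interferon-induced GTPase, in 8 and 33 cells, with log2 ratios of 2.03 and 2.01 against 0.42 and 0.65 in the other macrophages.

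The genes lowest in sGC ∆PC were Cd209d, Hba-a2, Cd209g, Hba-a1, Hbb-bs, Cd209f, Mcm8, Slc13a3, Ddx60 and Apold1. Hba-a1, Hba-a2 and Hbb-bs encode hemoglobin and were also far lower in the other macrophages (log2 ratio -4.60, -4.64 and -4.75). In the selected cells Hba-a1 stood at -4.75 and Hbb-bs at -4.50, or at -3.90 and -3.43 without each gene's top cell. Hba-a2 had 0 UMIs in the selected sGC ∆PC cells, at least 23.2-fold lower against a floor of 3 counts. Cd209d, Cd209f and Cd209g, lectins of the DC-SIGN family, were seen in 2 cells of sGC Ctr, the same 2 cells for Cd209d and each of the other lectins. Of the 49 Mcm8 UMIs of sGC Ctr 42 came from 1 cell, and of the 79 of Slc13a3 38. Ddx60, an interferon-induced helicase, was seen in 31 cells of sGC Ctr and 20 of sGC ∆PC (40.1 and 11.3 CPM), with 37 of its 95 UMIs in sGC Ctr in 1 cell. Its log2 ratio of -1.81 was between -0.95 and -0.47 under 5 other settings (a mitochondrial limit of 5%, a stricter limit on cancer-cell genes, the top 5%, equal weight of the 4 genes and the thinned ranking), short of 2-fold. Of the genes described above, Slc40a1 (log2 ratio -1.62, -2.15 to -1.13) and Cd163 were lower in sGC ∆PC, Cd163 also in the other macrophages (-1.30). Ppbp was higher (1.12, 0.87 to 1.38, of which 1 cell gave 172 of 493 UMIs), and Nos2 was higher by 0.91 in the selected cells and by 0.89 in the others.

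**Figure D5:**
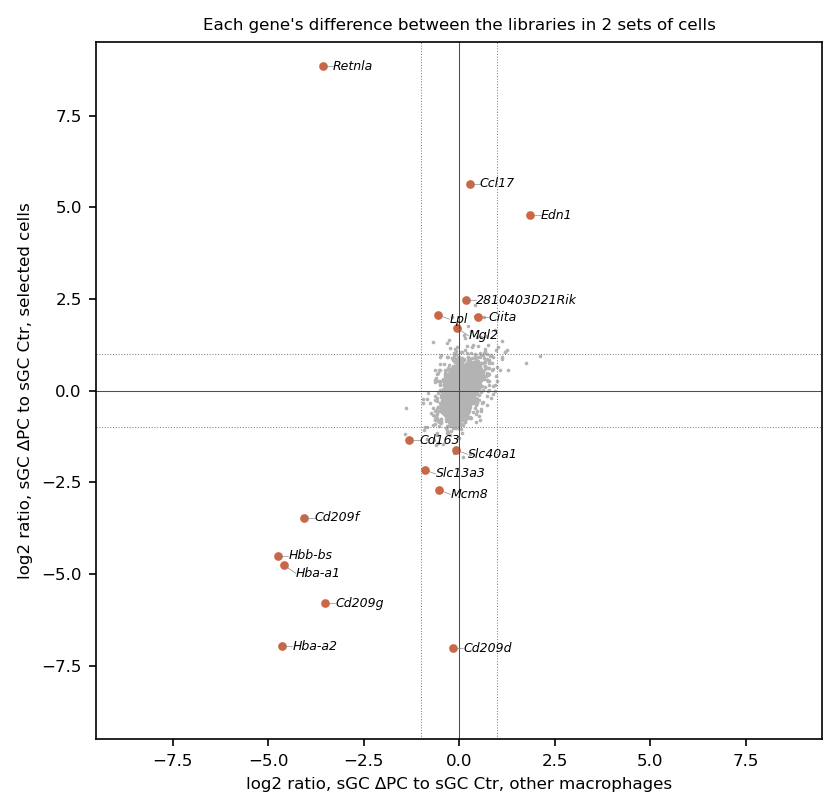
Difference between conditions (log2 of sGC ∆PC over sGC Ctr) for 7641 genes in the other macrophages (horizontal axis) and in the selected cells (vertical axis), with dotted lines at 2-fold. Retnla and Ccl17 stand far above in the selected cells alone, the hemoglobin genes are low in both sets, and genes with 0 UMIs in 1 library lie at values set by the pseudocount.

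By list, the heme and iron genes had 0 of 19 higher and 2, Slc40a1 and Cd163, lower between the conditions (median log2 ratio -0.17, against -0.14 in the other macrophages), the NRF2 targets 0 of 19 past 2-fold (-0.15 and 0.01), the hypoxia genes 0 of 29 (-0.03 and 0.08) and the type I interferon genes 0 of 19 higher and 1, Ifit1, lower (-0.17 and 0.08). As given above, the sums of Slc40a1 and Cd163 rest on few cells. MHC class II genes had 1 of 7 higher, Ciita, with a median of 0.68 in the selected cells and 0.33 in the other macrophages. M2-like genes had 4 of 14 higher (Retnla, Ccl17, Mgl2 and Chil3) and 1 lower (Cd163), with a median of -0.15 in the selected cells and -0.10 in the other macrophages. M1-like genes had 1 of 12 higher, Cxcl10, and 0 lower (0.23 and 0.16). Among markers of other cells, 5 monocyte genes had a median of 0.70 in the selected cells and 0.11 in the other macrophages, with 1, Chil3, past 2-fold, and 3 granulocyte genes had 0.59 and 0.60, with 1, S100a9, past 2-fold. Of 3 fibroblast genes 2 were past 2-fold, the collagens Col1a1 and Col1a2 (log2 ratio 1.37 and 1.34, against -0.26 and -0.69 in the other macrophages), and the third, Dcn, stood at 0.83 and 0.48. Whether RNA of these cells had a part in other differences was not tested.

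The MHC class II genes H2-Aa, H2-Ab1 and H2-Eb1 and the invariant chain Cd74 were higher in sGC ∆PC in Mmp12-led cells and lower in Hmox1-led cells, by less than 2-fold except for H2-Ab1 in the former. H2-Aa stood at 1146 CPM in those of sGC Ctr and 2059 CPM in those of sGC ∆PC (log2 ratio 0.85, 0.75 to 0.95), and at 453 and 287 CPM in Hmox1-led cells (-0.66, -0.85 to -0.48). H2-Ab1 had ratios of 1.01 and -0.79, H2-Eb1 of 0.94 and -0.86 and Cd74 of 0.83 and -0.38. Without each gene's top cell these ratios were 0.89 and -0.55 for H2-Aa, 1.08 and -0.55 for H2-Ab1, 1.04 and -0.53 for H2-Eb1 and 0.90 and -0.21 for Cd74. Spp1 stood at 3643 and 1623 CPM in Mmp12-led cells (log2 ratio -1.17, -1.24 to -1.09) and at 1801 and 1785 CPM in Hmox1-led cells. Cxcl3 had a ratio of -2.13 in Mmp12-led cells and 0.43 in Hmox1-led cells, and Nos2 of -0.19 and 1.77. A difference between the kinds in these ratios was not tested, since each kind has 1 library per condition.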

How the data were processed

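Single-cell RNA of LLC tumors was measured with droplet libraries, 1 per condition, each from 3 pooled tumors. The authors deposited UMI counts per gene and barcode, made with Cell Ranger 6.1.1 on mm10 per the submitters' processing notes, with gene names and barcodes as other columns and no cell annotation. Counts were summed per set of cells and library and scaled to CPM. A 3′ tag count is not scaled by gene length. Ratios used a pseudocount of 0.5 counts, shared out by the totals of the 2 sets so that it adds the same CPM to both. Genes with at least 50 UMIs were kept, and a gene was counted when its level differed at least 2-fold.

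Shares have exact binomial intervals, CPM exact Poisson intervals, ratios of counts exact conditional intervals and the ratio of shares a Katz interval, all at 95%. The macrophage limits above were the only step against doublets, and no doublet caller was run. For a repeated gene symbol the first row was used. Thinning drew 1000 UMIs per cell with a fixed seed.

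The members and gene lists were chosen with earlier results of these data known. Genes were named by a rule: the 6 markers, the 12 and 8 genes with the largest excess and deficit against the other macrophages (by the smaller of the changes of the 2 libraries), the 10 highest and 10 lowest between conditions, up to 4 per list, and Gucy1b1. Other genes, those of the Mmp12-led and Hmox1-led cells among them, were named after their values were seen. Positions are from GENCODE vM21 and promoters from RefSeq (GRCm38.p6), where 5 of the 6 markers had an entry. Scripts used Python 3.11.15 with numpy 2.4.6, scipy 1.17.1, pandas 2.3.3 and matplotlib 3.10.9, and were tested on simulated data. Alternatives were other limits on UMIs, mitochondrial share, cancer-cell genes, ranking, filter and pseudocount. Each condition had 1 library, so no test was made. Values of 1 gene are not reported here.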

Additional observations from a re-analysis of the deposited data

Results flagged for a closer look

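Of the genes measured in all sets, 2 had opposite differences of at least 2-fold between the selected cells and the other macrophages in the 2 libraries. Ccl17 had log2 ratios of -3.15 (sGC Ctr) and 2.39 (sGC ∆PC), and Lyz1 of -1.15 and 1.06. The sGC ∆PC value of Lyz1 rests in part on 1 cell with 118 of 321 UMIs. These differences between the libraries were not tested.

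Between the conditions, 6 genes went at least 2-fold in opposite directions in Mmp12-led and Hmox1-led cells. The level in sGC ∆PC over that in sGC Ctr, as log2, was -1.61 in Mmp12-led and 2.61 in Hmox1-led cells for Ppbp, -2.79 and 1.41 for Fabp4, and -1.26 and 1.32 for Tspan5. It was 1.97 and -2.70 for Fcrls, 1.31 and -1.76 for Sema4a, and 1.05 and -1.07 for Slpi. Without each gene's top cell it was -2.55 and 2.35 for Ppbp and 1.38 and -1.82 for Sema4a, and it was 0.87 in Mmp12-led cells for Fcrls and 0.86 and -0.61 for Slpi. These differences were not tested either.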

How the results depend on the processing

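The log2 ratio of 0.53 of the share of selected cells stayed above 0 under 8 alternatives that chose the cells in another way over both libraries (0.34 to 0.59). The top 10% taken within each library, which fixes the ratio near 0 and so shows no direction, gave 0.00472, and the filter and pseudocount do not enter it. It was, among alternatives chosen after seeing the data, 0.77 without Hmox1 in the sum and 0.38 without Mmp12. Ranking on cells thinned to 1000 UMIs, where ties at the limit raised the set to 595 and 860 cells, gave 0.34. The 243 genes higher against the other macrophages became 86 under that ranking, and 504 higher and 2520 lower with no filter on low counts. The 47 genes higher in sGC ∆PC became 74 with the top 5%, 77 under the thinned ranking, 1910 with no filter and 153 with each cell weighted equally, the last chosen after seeing the data. The 37 lower genes became 20 with equal weight of the 4 genes and 1382 with no filter. For the markers not used to select cells, the smaller log2 ratio of selected to other macrophages moved but stayed past 2-fold. It was 2.15 instead of 3.28 for Ppbp at a mitochondrial limit of 5%, and 1.80 instead of 2.84 for Gdf15 under the thinned ranking. Of single genes between conditions, Cd209g (1.51), Cd209f (3.35) and Mcm8 (0.22) turned upward at a mitochondrial limit of 5%, Mcm8 (0.50) at a stricter limit on cancer-cell genes, Cd209f (0.0146) under the thinned ranking, and 2810403D21Rik turned downward (-0.56) with the top 5%. No paired analysis was possible because the groups compared share fewer than 2 replicate numbers, with 1 library each. Depth limits what is seen per cell in sGC ∆PC, whose selected cells had a median of 5646 UMIs.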
